A study of Mus musculus with 3 samples.

Results

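Innate lymphoid cells of the adult mouse lacrimal gland (LG) were selected by a count gate on the transcripts of single cells. A cell was taken as an innate lymphoid cell when *Gata3*, *Il1rl1*, *Rora*, *Il13*, *Il5* and *Areg* together had at least 2 unique molecular identifiers (UMIs, tags that mark single captured RNA molecules) and *Ptprc*, *Il7r* and *Ltb* together at least 1. The cell also had to lack every UMI of 10 genes of T, NK, mast, epithelial and fibroblast cells (*Cd3d*, *Cd3e*, *Cd3g*, *Tcrg-C1*, *Klra8*, *Klre1*, *Cpa3*, *Epcam*, *Col1a1* and *Col3a1*) and could hold at most 1 UMI of *Lyz2*, *C1qa* and *Csf1r* together. This gate held 300 of the 19592 cells that passed the quality filter. Because the cells were chosen on measured counts, levels of the gate genes are descriptions of the selection and were left out of the calls.

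Innate lymphoid cells are lymphocytes that lack rearranged antigen receptors and sit mostly in tissues. Their group 2 (ILC2) depends on the transcription factors GATA3 and RORα, senses the alarmin IL-33 through the receptor chain encoded by *Il1rl1*, and can secrete IL-5, IL-13 and amphiregulin (*Areg*). The group 1 cells share cytotoxic and interferon genes with NK cells, and the group 3 cells share the IL-17 and IL-22 genes with some T cells.

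The 3 droplet libraries had been made from dissociated LGs of C57BL/6J mice aged 2 months: 1 Female library, and 2 Male libraries. Each was a pool of 6 glands from 3 untreated animals, so the animals of a pool could not be told apart and a library counted as 1 sample. Preparation of the Female library took place on a separate day and in a separate core facility, which the labels do not separate from sex. The sexes are therefore described side by side and not tested. Where 3 values stand together, the Female library comes first, then replicate 1 and replicate 2 of the Male libraries.

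The innate lymphoid cells held 843284, 25736 and 29895 UMIs in all, with a median per cell of 2273, 1278 and 1019 UMIs and of 662, 284 and 272 genes. One female cell of the gate carried 189671 UMIs, 22.5% of the female sum, where the next highest had 9110. Female levels of innate lymphoid cells per 1e6 UMIs, given below, use the full sum, which was 653613 UMIs without this cell. For a gene that this cell lacked, they are lower than they would be without it. Tests without it are given for some results. Transcripts of secreted tear proteins, which acinar cells make and lymphocytes are not known to make, took 49.3, 62.1 and 59.2% of the UMIs of the innate lymphoid cells (39.2% in the Female library without the largest cell). Their share in the cells gated as T cells was 37.3, 57.9 and 47.9%. Barcodes with 10 to 100 UMIs that had not been called as cells, taken as a sample of this free RNA, held 0 UMIs of *Gata3*, *Il1rl1*, *Il13* and *Il5* and 1 UMI of *Rora* in each library. The libraries shared 16, 18 and 12 cell barcodes pairwise, none of them between innate lymphoid cells. Of the female innate lymphoid cells, 20 were among the cells with the highest doublet scores (7.81%, against 6.64% of all female cells kept). This share was higher than in the female T cells (1 of 122, 0.820%) and NK cells (1 of 168, 0.595%).

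Innate lymphoid cells made up 3.09% of the female cells kept (256 of 8298, 95% exact binomial interval 2.72 to 3.48), 0.340% in male library 1 (19 of 5582, 0.205 to 0.531) and 0.438% in male library 2 (25 of 5712, 0.283 to 0.645). The interval of the Female library lay above both male intervals, which overlapped. These intervals cover counting error only. The cells gated as T cells took 1.47, 0.269 and 0.385% and those gated as NK cells 2.02, 0.197 and 0.140%, so that the other lymphocytes had their highest share in the Female library as well. Cells with a UMI of *Ptprc*, the pan-leukocyte gene, numbered 2006, 357 and 373. Depth moved with these shares, since the innate lymphoid cells of the Male libraries had fewer UMIs per cell. After thinning every cell to 1000 UMIs, with shallower cells left out, the gate held 1.94, 0.188 and 0.242% of the cells. The part of sex, core, day and sampling of the tissue in this difference cannot be told apart.

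**Figure D1:**
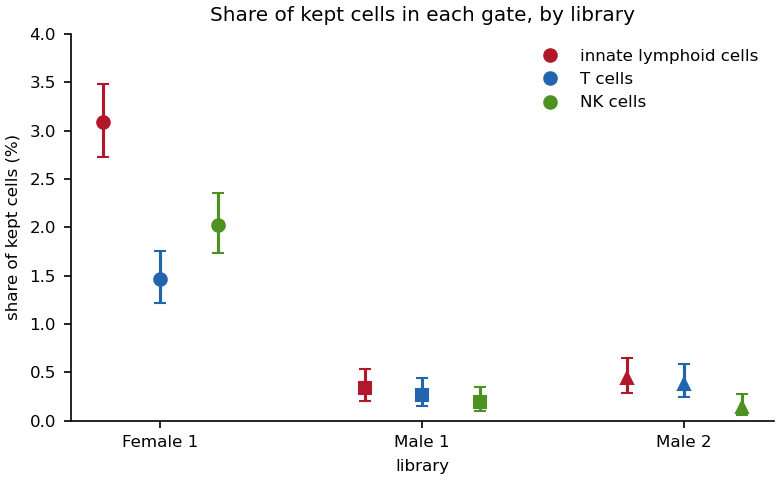
Share of the cells kept (%, vertical axis) in the gates of innate lymphoid cells (red), T cells (blue) and NK cells (green) in each library (horizontal axis), with 95% exact binomial intervals as bars. All 3 gates were highest in the Female library, and innate lymphoid cells were the most frequent of the 3 there at 3.09%.

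Within the gate, *Rora*, *Gata3* and *Areg* were found in the most cells. *Rora* was found in 207 of 256, 13 of 19 and 14 of 25 innate lymphoid cells, with 605, 22 and 19 UMIs. *Gata3* was found in 202, 7 and 13 cells, with 528, 9 and 18 UMIs. *Il1rl1*, the IL-33 receptor chain, was found in 115, 4 and 2 cells, with 202, 5 and 3 UMIs. *Areg* was frequent, with a UMI in 155, 9 and 11 cells, whereas the type 2 cytokine genes *Il5* (17, 6 and 4 cells) and *Il13* (8, 1 and 3 cells) were rare. In the Female library *Gata3* and *Rora* were found together in 163 cells, *Gata3* and *Il1rl1* in 90, and *Il13* and *Il5* in 4. Of the female cells, 30 held a single gate gene, 71 held 2, 98 held 3, 48 held 4, 8 held 5 and 1 held all 6.

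The levels of these genes in counts per 1e6 UMIs (CPM) of a cell group, taken as a description, lay in the order innate lymphoid cells, T cells, NK cells. *Rora* stood at 717, 855 and 636 CPM in innate lymphoid cells, at 239, 46.3 and 174 in T cells and at 14.6, 0 and 0 in NK cells. *Gata3* stood at 626, 349.7 and 602 CPM in innate lymphoid cells, against 85.3, 0 and 0 in T cells and 45.7, 0 and 0 in NK cells. *Il1rl1* was almost absent from both other gates, with 2 UMIs in the T cells and 0 in the NK cells. The lowest innate lymphoid level of each of these 3 genes lay above the highest level in either other gate, which the selection itself brings about.

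At the edge of the gate, 69 cells failed only because they held 1 UMI of the 6 genes (36, 15 and 18 per library), and 56 innate lymphoid cells held exactly 2 (35, 8 and 13). A UMI of *Il2ra*, *Lmo4*, *Furin*, *Rgs2* or *Ramp3*, none of which the gate used, was found in 48 of the 69 cells outside and in 47 of the 56 inside. These genes were all called higher in innate lymphoid cells in the same data, and no such count is given for T cells or NK cells. The counts therefore do not tell what the cells outside the gate are. At least 10 UMIs of the gate genes were held by 68 female cells and by 0 male cells. The shallow male libraries thus sat near the threshold: with at least 3 UMIs required, the shares were 2.66, 0.197 and 0.210%.

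Cells entered by unlike routes. *Gata3*, *Il1rl1*, *Il13* or *Il5* was found in 227, 11 and 18 innate lymphoid cells, and 29, 8 and 7 entered on *Rora* and *Areg* alone. The summed level of 20 genes known from ILC2 outside the gate was 2066, 2183 and 1231 CPM in the first set and 2161, 1354 and 1634 CPM in the second. Macrophage and dendritic cell markers stood at 105, 68.2 and 0 CPM against 2173, 4152 and 4775 CPM, but in the second set 1 cell of each library held 170 of the 180, all 46 and all 38 of these UMIs. Genes of group 1 innate lymphoid and NK cells stood at 76.3, 0 and 0 against 181, 451 and 5529 CPM, where the 15, 5 and 44 UMIs of the second set came from 4, 1 and 2 cells. The part of another cell type in the second set was not tested, and counts without the cells that carry such markers are given beside the results they touch.

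Markers of other cell types were otherwise low. The 8 defining genes of basophils and mast cells (*Mcpt8*, *Cd200r3*, *Ms4a2*, *Fcer1a*, *Mcpt4*, *Cma1*, *Tpsb2* and *Tpsab1*) and all 5 neutrophil markers were at 0 UMIs in the 300 cells, as were *Cd79a* and *Ms4a1* of B cells. The other 4 genes of the basophil and mast cell list (*Kit*, *Gata2*, *Il4* and *Hdc*) had 54, 0 and 2 UMIs (64.0, 0 and 66.9 CPM), against 2, 0 and 2 in T cells and 13, 0 and 0 in NK cells. No gene of the basophil and mast cell, B and plasma cell, or epithelial lists passed the test against T cells or NK cells by edgeR or DESeq2 (2, 0 and 0 genes at an unadjusted p under 0.05 against T cells and 1, 1 and 1 against NK cells), and of the 6 fibroblast markers *Sparc* alone did, against NK cells. The 16 macrophage and dendritic cell markers summed to 308, 1826 and 1271 CPM in innate lymphoid cells, 99.5, 0 and 69.5 in T cells and 159, 201 and 0 in NK cells, and 8 cells (6, 1 and 1) held 3 or more of their UMIs. The 6 endothelial markers (*Pecam1*, *Flt1*, *Kdr*, *Cdh5*, *Plvap* and *Ptprb*) summed to 428, 38.9 and 335 CPM, against 62.6, 0 and 69.5 in T cells and 43.9, 0 and 0 in NK cells. Of 6 acinar secretory genes that mark free RNA, 2 were higher than in T cells (*Lcn11* and *Sval2*) and 5 than in NK cells. Without the largest female cell *Lcn11* and *Sval2* were not called against T cells (log2 fold changes 0.45 and 0.51), nor *Lcn11* against NK cells (0.72). Of the innate lymphoid cells, 23 (21, 0 and 2) held 2 or more endothelial UMIs, and 1 of them held 65.

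To ask what sets innate lymphoid cells apart from their nearest neighbours in the gland, UMIs were summed per library and compared with those of T cells (122, 15 and 22 cells with at least 2 UMIs of *Cd3d*, *Cd3e* and *Cd3g*) and of NK cells (168, 11 and 8 cells gated on *Klra8*, *Klre1*, *Ncr1* and *Klrb1c*). edgeR's quasi-likelihood test with library as a block was used, fold changes are on its log2 scale with TMM scaling, and ± gives their SE over 3 libraries per arm. Both comparisons share the innate lymphoid cells, so their results are set side by side and are not independent. Where an arm held 1 to 3 UMIs of a gene, the ratio of the CPM of the pooled libraries, without TMM scaling, is given with its exact interval in place of the fold change, and where it held 0 a floor of 3 pooled UMIs gives a lower bound. These intervals treat each pooled UMI as a separate count. They cover counting error only and leave out the spread between cells and between libraries. A UMI was worth 38.9 and 33.5 CPM in the male innate lymphoid cells and 50.3 and 102 CPM in the male NK cells, so that low genes rest on the Female library.

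Of 237 genes with enough counts in the comparison with T cells, 38 were higher (16.0% of those tested) and 19 lower (8.02%) in innate lymphoid cells at an adjusted p under 0.05, 24.1% in all. Transcripts of tear products were 15 of the 38, beside the larger share of such UMIs given above, and 3 of the 19 were ribosomal protein genes. Against NK cells, 52 of 250 genes were higher (20.8%) and 28 lower (11.2%), 32.0% in all, with 24 tear-product genes among the 52. The median log2 fold change over all genes tested was 0.02 and 0.03. Scaling by total UMIs, which counts the tear products, moved these medians to −0.37 and −0.59 and the calls to 9 higher and 66 lower against T cells and 27 higher and 136 lower against NK cells. Leaving tear-product and mitochondrial genes out gave 24 higher and 12 lower, and 19 higher and 18 lower. Without the Female library 0 genes were higher (31 genes at an unadjusted p under 0.05) and 3 lower against T cells, where all sums were small, and 26 were higher and 18 lower against NK cells. Without male library 1 the counts were 146 and 68, and 181 and 71, and without male library 2 they were 65 and 34, and 258 and 125, where 1420, 2023, 1207 and 2461 genes passed the filter on low counts. Without the largest female cell 22 were higher and 13 lower against T cells, and 49 and 26 against NK cells.

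**Figure D2:**
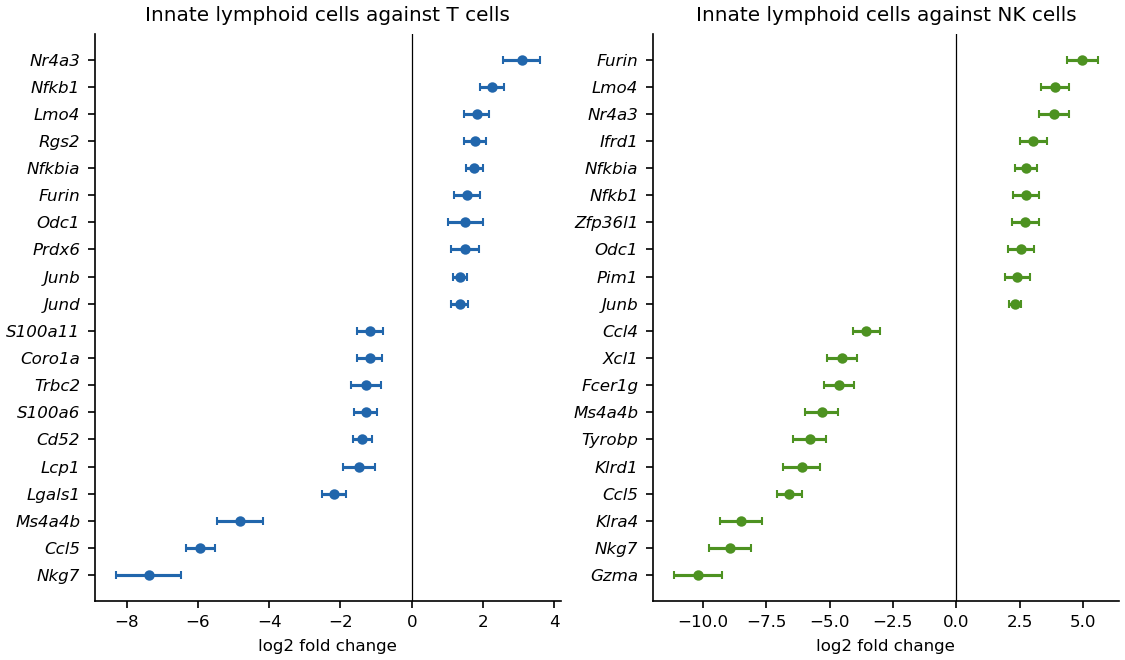
Log2 fold change (horizontal axes, bars SE, 3 libraries per arm) of the genes with the largest and smallest called changes in innate lymphoid cells against T cells (left, blue) and NK cells (right, green), with tear-product, mitochondrial and ribosomal protein genes left out. Genes right of the line at 0 were higher in innate lymphoid cells: *Furin* stood at 4.98 against NK cells, and *Nr4a3*, which the study had named from these libraries and which is shown as a description, at 3.08 against T cells.

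Outside the tear products, the genes higher in innate lymphoid cells included *Lmo4*, *Furin* and *Rgs2*. *Lmo4*, a LIM-domain partner of transcription factors, stood at 531, 389 and 335 CPM in innate lymphoid cells, 173, 185 and 104 in T cells and 49.4, 0 and 102 in NK cells. All 3 innate lymphoid values lay above the other 6. It was higher than in T cells (log2 fold change 1.83 ± 0.35, adjusted p = 0.00184, edgeR, higher in 3 of 3 libraries) and than in NK cells (log2 fold change 3.90 ± 0.57, adjusted p = 2.96e-10, 3 of 3). *Furin*, a protease that cleaves proproteins, stood at 632, 583 and 535 CPM, against 338, 231 and 34.8 in T cells and 32.9, 0 and 0 in NK cells. Its values in innate lymphoid cells were above all others (log2 fold change 1.55 ± 0.37, adjusted p = 0.00886 against T cells and log2 fold change 4.98 ± 0.60, adjusted p = 1.24e-14 against NK cells). *Rgs2*, which shortens signals from G-protein-coupled receptors, stood at 620.2, 544 and 435 CPM against 228, 139 and 174 in T cells (log2 fold change 1.78 ± 0.31, adjusted p = 0.00102). With the Female library left out, the log2 fold changes of *Furin* and *Rgs2* against T cells were 2.37 and 1.79, with adjusted p = 0.11 and 0.244. *Lmo4* was then too low for the filter, and without the filter its log2 fold changes were 1.51 against T cells (adjusted p = 0.988) and 3.73 against NK cells (adjusted p = 0.0359).

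**Figure D3:**
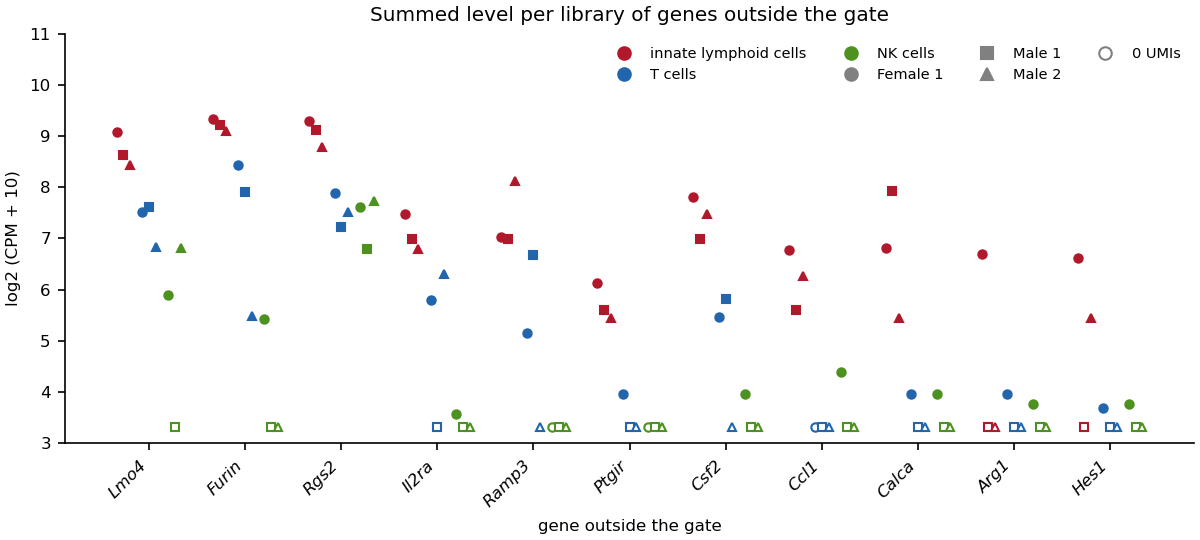
Levels of 11 genes outside the gate, as log2 of CPM + 10 (vertical axis), in innate lymphoid cells (red), T cells (blue) and NK cells (green), 1 point per library and open points for 0 UMIs. Innate lymphoid cells had the highest points for *Lmo4*, *Furin*, *Rgs2*, *Il2ra*, *Ramp3*, *Ptgir*, *Csf2*, *Ccl1* and *Calca* in each library, whereas *Arg1* was found in the Female library alone.

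The enzyme genes *Odc1* and *Prdx6* were among them. *Odc1*, the first enzyme of polyamine synthesis, stood at 223, 466 and 368 CPM against 134, 0 and 139 in T cells (log2 fold change 1.5 ± 0.49, adjusted p = 0.037) and 84.2, 0 and 0 in NK cells (log2 fold change 2.56 ± 0.51, adjusted p = 4.53e-06). The call against T cells was lost without the Female library (adjusted p = 0.266), without male library 2 (adjusted p = 0.0974) and without the 8 cells with 3 or more macrophage and dendritic cell UMIs (log2 fold change 1.58, adjusted p = 0.0547). It was also lost with total UMIs (adjusted p = 0.128), without tear-product and mitochondrial genes (adjusted p = 0.0631) and with DESeq2 (adjusted p = 0.0922). *Prdx6*, a peroxide-reducing enzyme, stood at 370.0, 349.7 and 301 CPM against 191, 92.5 and 69.5 in T cells (log2 fold change 1.5 ± 0.39, adjusted p = 0.0134), with the innate lymphoid values above the T cell values in 3 of 3 libraries. Against NK cells the kinase gene *Pim1* (log2 fold change 2.42 ± 0.50, adjusted p = 9.2e-06), the RNA-binding *Zfp36l1* (log2 fold change 2.73 ± 0.53, adjusted p = 2.48e-06) and the transcriptional regulator *Ifrd1* (log2 fold change 3.04 ± 0.54, adjusted p = 2.51e-07) were higher too, in 3 of 3 libraries each.

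Genes that were lower than in T cells included *Nkg7*, *Ccl5* and *Ms4a4b*. *Nkg7*, of cytotoxic granules, stood at 0, 0 and 33.5 CPM in innate lymphoid cells against 364, 231 and 452 in T cells, with 1 UMI in all among the innate lymphoid cells, so that T cells were higher by a pooled ratio of 326 (95% exact interval 57.7 to 12983) in pooled counts. The chemokine gene *Ccl5* stood at 15.4, 0 and 66.9 CPM against 1391, 370.2 and 1599.5 (log2 fold change −5.93 ± 0.41, adjusted p = 5.91e-07), and *Ms4a4b*, a surface gene of effector T cells, at 7.12, 38.9 and 33.5 against 369.7, 185 and 382 (log2 fold change −4.82 ± 0.65, adjusted p = 0.000237). T cells exceeded innate lymphoid cells in each library for all 3 genes. *Lgals1* (−2.17 ± 0.34), *Cd52* (−1.38 ± 0.26), *S100a6* (−1.29 ± 0.33), *S100a11* (−1.17 ± 0.37), *Lcp1* (−1.48 ± 0.44) and *Coro1a* (−1.18 ± 0.35), the last 2 of the actin skeleton, were lower as well in log2 fold change, with adjusted p from 0.000489 to 0.031. The first 3 of these lost the call without the Female library (−2.49, −1.06 and −0.67) and the others without male library 2 (−1.13, −1.24 and −0.96), with the sign kept.

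Genes that were lower than in NK cells included *Gzma* and *Klra4*. *Gzma*, a granule protease, was at 0 UMIs in all 300 innate lymphoid cells and at 726, 805 and 713 CPM in NK cells, at least 218-fold lower against the floor. *Klra4*, an NK receptor gene, had 1 UMI against 805, 352 and 611 CPM in NK cells, which were higher by a pooled ratio of 707 (95% exact interval 126 to 27972). *Klrd1* (−6.11 ± 0.72), *Tyrobp* (−5.79 ± 0.65), *Fcer1g* (−4.64 ± 0.60) and *Ccl5* (−6.58 ± 0.48), which encode receptors, their signalling adaptors and a chemokine, and likewise *Ms4a4b* (−5.31 ± 0.66) were lower by these log2 values with adjusted p of at most 8.35e-13. The chemokine genes *Ccl4* (−3.54 ± 0.52) and *Xcl1* (−4.52 ± 0.58) were lower too. The study had named *Nkg7*, *Tyrobp*, *Xcl1* and *Gzma* for NK cells and *Ccl5* for cytotoxic T cells from these libraries, so these values are no independent evidence. All 15 UMIs of *Xcl1* in male library 2 came from 2 innate lymphoid cells, and without the Female library its log2 fold change was −1.31 with adjusted p = 0.115. Over the list of 17 genes of group 1 innate lymphoid and NK cells, 7 of the 7 genes with enough counts were lower than in NK cells, and 2 of 2 were lower than in T cells, where the median of all genes tested was near 0 and that of the list was −6.11 and −6.66. The NK cells had been chosen on NK receptor genes that go with these, and the innate lymphoid cells had to lack *Klra8* and *Klre1*, so the gates largely fix the direction against NK cells.

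With no filter on low counts, so that rarer genes of the lists could be read, 131 of 12914 genes were higher (1.01%) and 44 lower (0.341%) than in T cells (1.36% in all), and 220 of 13208 were higher (1.67%) and 83 lower (0.628%) than in NK cells (2.29% in all). DESeq2 called 22 and 9, and 70 and 18, in the same tables. The counts over lists that follow come from edgeR without the filter. Many of them rest on the Female library: without it, of 84 calls on the list genes described that could be refitted, 6 were kept, 75 kept the direction without the call and 3 reversed.

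The ILC2 genes outside the gate were higher in part. Of 19 genes of the list that had a UMI, 4 were higher than in T cells and 7 than in NK cells, and 0 were lower. Their median log2 fold change, with genes at 0 in an arm set at their bound, was 1.69 against T cells and 3.39 against NK cells, where that of all genes with at least 10 UMIs was 0.11 and 0.05. Of the innate lymphoid cells, 237 of 256, 12 of 19 and 12 of 25 held 2 or more UMIs of the list. The counts were 79 of 122, 7 of 15 and 5 of 22 in T cells and 24 of 168, 0 of 11 and 1 of 8 in NK cells. *Furin* and *Lmo4*, named above, were among the called genes in both comparisons, and the list was chosen with earlier results known. *Il2ra*, the high-affinity chain of the IL-2 receptor, had 142, 3 and 3 UMIs in innate lymphoid cells (168, 117 and 100.4 CPM), 16, 0 and 2 in T cells and 1, 0 and 0 in NK cells. It was higher in 3 of 3 libraries (log2 fold change 2.36 ± 0.54, adjusted p = 0.00154 against T cells), and in pooled counts 94.9 (95% exact interval 16.8 to 3772) times that of NK cells. *Arg1*, arginase, had 79, 0 and 0 UMIs, against 2, 0 and 0 in T cells and 2, 0 and 0 in NK cells. Its ratio to T cells was 17.7 (95% exact interval 4.73 to 148) and to NK cells 25.3 (95% exact interval 6.78 to 213), but it was found in the Female library alone.

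Other genes of the list stood apart from NK cells and not from T cells. *Cxcr6*, a chemokine receptor of tissue lymphocytes, had 202, 311 and 66.9 CPM in innate lymphoid cells, 290.1, 231 and 0 in T cells and 9.15, 0 and 0 in NK cells (log2 fold change 5.17 ± 0.75, adjusted p = 1.11e-09, against log2 0.31 ± 0.40 and adjusted p = 0.993 for T cells). *Icos*, a costimulatory receptor, had 146, 38.9 and 66.9 CPM, 165, 370.2 and 174 in T cells and 7.32, 0 and 0 in NK cells (log2 fold change 4.92 ± 0.78, adjusted p = 4.53e-08). *Ltb4r1*, a leukotriene B4 receptor, was at 0 UMIs in NK cells and at least 10.5-fold higher in innate lymphoid cells. *Klrg1* (28, 0 and 1 UMIs), *Cd200r1* (22, 2 and 0), *Ccr8* (19, 1 and 1), *Pparg* (13, 0 and 0) and *Il9r* (12, 0 and 1) were sparse, with 4 UMIs of *Klrg1* in T cells and 0 of the other 4, and did not pass the test against T cells. *Il1r2* was at 0 UMIs.

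Among 18 transcription factors of innate lymphoid cells, 2 were higher and 1 lower than in T cells, and 3 higher and 2 lower than in NK cells, with list medians of −0.35 and 0.53. *Hes1*, a Notch target, had 74, 0 and 1 UMIs against 1, 0 and 0 in T cells and 2, 0 and 0 in NK cells, a pooled ratio of 33.5 (95% exact interval 5.84 to 1342) and 24.0 (95% exact interval 6.43 to 202). It was at 0 in male library 1. *Tcf7*, a factor of early lymphoid cells and T cells, stood at 5.93, 0 and 0 CPM against 91.0, 139 and 0 in T cells and 82.3, 50.3 and 0 in NK cells, and was lower than in both (−3.33 ± 0.83 and −3.04 ± 0.90, adjusted p = 0.00655 and 0.032). Without male library 1 the call against NK cells was lost (adjusted p = 0.104), and *Tcf7* was not found in any arm of male library 2. *Bcl11b*, needed by ILC2 and T cells, was higher than in NK cells, which held 1 UMI (pooled ratio 32.1, 95% exact interval 5.49 to 1291), and stood at 59.3, 0 and 0 CPM against 185, 0 and 34.8 in T cells (adjusted p = 0.993). *Id2*, which all innate lymphoid cells need, was expressed at 365, 311 and 335 CPM and did not pass the test against T cells (adjusted p = 0.0628) or NK cells (adjusted p = 0.75).

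The secreted factors divided by gene. Of 22 and 21 cytokine and secreted factor genes tested, 3 were higher and 2 lower than in T cells and 4 higher and 5 lower than in NK cells. *Calca*, which encodes calcitonin gene-related peptide and calcitonin, had 86, 6 and 1 UMIs in 42, 5 and 1 innate lymphoid cells (102, 233 and 33.5 CPM). T cells and NK cells held 2, 0 and 0 and 3, 0 and 0 UMIs, a pooled ratio of 20.8 (95% exact interval 5.60 to 174) and 19.9 (95% exact interval 6.59 to 98.1). The peptide's gene was higher in 3 of 3 libraries in both comparisons. *Ccl1*, the ligand of the receptor CCR8, had 84, 1 and 2 UMIs in 17, 1 and 2 cells, was at 0 in T cells (at least 13.0-fold higher) and had 6, 0 and 0 UMIs in NK cells (log2 fold change 3.85 ± 0.74, adjusted p = 2.03e-05). *Cxcl2*, a neutrophil chemokine, had 80, 17 and 3 UMIs in 33, 5 and 2 cells and was higher than in NK cells (pooled ratio 32.1, 95% exact interval 8.64 to 268) but did not pass against T cells (adjusted p = 0.148).

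*Csf2*, which encodes the myeloid growth factor GM-CSF, stood at 215, 117 and 167 CPM against 34.1, 46.3 and 0 in T cells and 5.49, 0 and 0 in NK cells, above the T and NK cells of the same library in each case. The study had named *Csf2*, *Nr4a1*, *Nr4a3* and *Vps37b* for its cluster of innate lymphoid cells from these libraries, so their values are a description and no independent evidence, also where they are among the called genes of a list. *Ifng*, the interferon gene, had 2 UMIs in all innate lymphoid cells and was higher in T cells by a pooled ratio of 36.9 (95% exact interval 9.44 to 317) and in NK cells by 44.5 (95% exact interval 11.8 to 376) (adjusted p = 0.00157 and 0.000115). The type 2 gene *Il4* had 6, 0 and 1 UMIs, and *Il9*, *Il3* and *Il10* were at 0.

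Receptors for neuropeptides and lipid mediators summed to 409, 505 and 401 CPM in innate lymphoid cells and 572, 463 and 69.5 in T cells. *Ramp3*, an accessory chain of the receptors for adrenomedullin and related peptides, had 102, 3 and 8 UMIs (121, 117 and 268 CPM), against 9, 2 and 0 in T cells (log2 fold change 2.76 ± 0.58, adjusted p = 0.000333) and 0 in NK cells (at least 24.1-fold higher). *Ptgir*, the prostacyclin receptor, had 51, 1 and 1 UMIs against 2, 0 and 0 in T cells, a pooled ratio of 11.8 (95% exact interval 3.12 to 100.4), and 0 in NK cells (at least 11.3-fold higher). Both were higher in 3 of 3 libraries. *Ramp1*, the chain that pairs with the calcitonin receptor-like receptor for calcitonin gene-related peptide, moved the other way, at 68.8, 0 and 33.5 CPM against 364, 185 and 34.8 in T cells (log2 fold change −1.83 ± 0.47, adjusted p = 0.0107). *Cysltr1*, a cysteinyl leukotriene receptor, was at 0 in NK cells and at least 5.56-fold higher in innate lymphoid cells, though found in the Female library alone (adjusted p = 0.0605 without male library 1). *Nmur1* and *Ptgdr2*, receptors for neuromedin U and prostaglandin D2 that mark ILC2 in other tissues, were at 0 UMIs. Of 14 genes of the list with a UMI, 2 were higher and 1 lower than in T cells, and of 13, 4 were higher and 0 lower than in NK cells.

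Of 20 cytokine receptors, *Il2ra* alone was higher in either comparison. *Il18r1*, a chain of the IL-18 receptor, had 3 UMIs and was lower in both comparisons, with T cells higher by a pooled ratio of 23.1 (95% exact interval 7.21 to 118) and NK cells by 24.4 (7.87 to 123), but this rested on the Female library, without which its log2 fold changes turned to 0.19 and 0.47. *Il2rb*, shared by the IL-2 and IL-15 receptors, was lower than in NK cells (log2 fold change −3.08 ± 0.56, adjusted p = 4.46e-06). Among 18 genes of tissue residency and egress, 3 were higher and 0 lower than in T cells and 5 were higher than in NK cells. *Ccr2*, a chemokine receptor, stood at 313, 155 and 201 CPM against 119, 92.5 and 34.8 in T cells (log2 fold change 1.97 ± 0.43, adjusted p = 0.000773), higher in 3 of 3 libraries. *Vps37b* stood at 615, 77.7 and 134 CPM, above the T cells (236, 185 and 209) in the Female library and below them in both Male libraries.

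Among the lists of lymphocyte genes, that of NF-kB and calcium response genes held the largest share of higher genes. Like the others, it was chosen with earlier results of these data known. NF-kB is a family of transcription factors (with subunits encoded by *Nfkb1* and *Rel*) that antigen and alarmin receptors release into the nucleus, and it drives its own inhibitors, among them *Nfkbia*, *Nfkbiz* and *Tnfaip3*. Of the 16 NF-kB and calcium response genes, 9 were higher and 1 lower than in T cells, and 10 higher and 0 lower than in NK cells. The list median was 1.67 and 2.59. With the filter on low counts, 5 of 5 genes (*Gadd45b*, *Nfkb1*, *Nfkbia*, *Odc1* and *Pim1*) were higher in both comparisons. Of these, *Odc1* lost its call against T cells under the alternatives given above. With total UMIs for scaling the counts were 6 higher and 1 lower, and 9 higher and 0 lower, so no direction turned. DESeq2 called 2 and 6 of them higher. Without the Female library 0 of 15 (3 at an unadjusted p under 0.05) and 3 of 14 genes were called, with medians of 0.67 and 2.35. In a contrast of duct clusters from these libraries, the study listed *Nfkbia* with inflammation genes and *Gadd45b* with stress response genes. It stated that some genes of that contrast are described as induced by dissociation. The part of tissue digestion in the NF-kB list was not tested.

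*Nfkb1* stood at 605, 349.7 and 468 CPM in innate lymphoid cells, 139, 139 and 139 in T cells and 159, 0 and 102 in NK cells. All innate lymphoid values lay above all others (log2 fold change 2.25 ± 0.35, adjusted p = 0.000489 against T cells and log2 fold change 2.74 ± 0.51, adjusted p = 1.27e-06 against NK cells). With neither the Female library nor the filter its log2 fold changes were 1.73 and 3.83, with adjusted p = 0.988 and 0.0167. *Nfkbia*, the inhibitor IκBα, stood at 1302, 699 and 769 CPM, 398, 231 and 522 in T cells and 183, 503 and 0 in NK cells (log2 fold change 1.76 ± 0.25, adjusted p = 0.000239 and log2 fold change 2.75 ± 0.42, adjusted p = 2.51e-09). Its log2 fold change against T cells without the Female library was 1.15 with adjusted p = 0.11. *Tnfaip3*, the deubiquitinase A20, stood at 965, 233 and 301 CPM against 327, 278 and 174 in T cells (log2 fold change 1.77 ± 0.31, adjusted p = 4.88e-06) and 104, 50.3 and 306 in NK cells (log2 fold change 3.50 ± 0.47, adjusted p = 2.74e-11), higher in 2 of 3 libraries each time. *Nfkbiz* stood at 398, 38.9 and 268 CPM against 93.9, 46.3 and 34.8 and 42.1, 0 and 102 (log2 fold change 2.63 ± 0.44, adjusted p = 9.75e-07 and log2 fold change 3.80 ± 0.62, adjusted p = 1.98e-07). The only gene that was lower was *Cd28*, the costimulatory receptor of T cells, against T cells (log2 fold change −3.45 ± 0.68, adjusted p = 8.88e-05).

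Promoters of the list genes are shown where they carry the NF-kB motif. The motif, GGG, then any 2 bases, then TTTCC, was searched on both strands of RefSeq windows (assembly GRCm38.p6) from 250 bases before to 50 after each start site, and was chosen after the results were seen. It was present in 535 of 32851 windows (1.63%). A window was at hand for 11 of the 16 list genes, in 16 windows, and 3 genes held the motif. Stretches around it are printed 5′ to 3′ on the strand of the gene, with the motif, which lies on the opposite strand in each, in capitals. They lie on the minus strand at chr10:19015411-19015442 for *Tnfaip3*, at chr11:23771031-23771080 for *Rel* and at chr12:55492648-55492696 for *Nfkbia*, 2, 81 and 19 bases before the start site. A match of letters is a description and not a binding site.
Tnfaip3: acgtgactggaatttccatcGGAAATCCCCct
Rel: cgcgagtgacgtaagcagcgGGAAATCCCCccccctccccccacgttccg
Nfkbia: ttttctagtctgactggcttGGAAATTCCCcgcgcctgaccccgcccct

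Immediate early genes, which respond to receptor signals within minutes and also to tissue digestion, differed by library. Of 28 such and heat-shock genes, 9 were higher and 1 lower than in T cells and 10 higher and 1 lower than in NK cells, with medians of 0.68 and 0.45. These medians turned with the scaling, to 0.20 and −0.27 with total UMIs, where 5 were higher and 5 lower, and 7 higher and 5 lower. *Ier3*, among the genes called higher in both comparisons, turned to a negative log2 fold change against T cells without the cells with endothelial UMIs. Without the Female library 0 of 27 were called against T cells (3 at an unadjusted p under 0.05), with a median of −0.01, and 2 of 27 against NK cells. Summed over the list, innate lymphoid cells stood at 13600.4, 6295 and 7660.1 CPM, T cells at 9181, 7079.7 and 8449.5 and NK cells at 9843, 7093 and 7741. Innate lymphoid cells were thus the highest in the Female library and the lowest in both Male libraries. *Junb*, an AP-1 subunit, stood at 2854, 1127 and 1271 CPM against 1115, 972 and 939 in T cells (log2 fold change 1.36 ± 0.19, adjusted p = 0.000239) and 644, 604 and 611 in NK cells (log2 fold change 2.34 ± 0.24, adjusted p = 4.18e-19), and *Jund* at 988, 816 and 769 against 398, 509 and 522 (log2 fold change 1.34 ± 0.24, adjusted p = 0.00109). Without the Female library *Junb* and *Jund* kept the sign against T cells (0.55 and 0.82) but not the call (adjusted p = 0.244 and 0.17). *Dusp2*, a phosphatase gene, was lower than in both (−2.14 ± 0.53 and −2.64 ± 0.59).

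**Figure D4:**
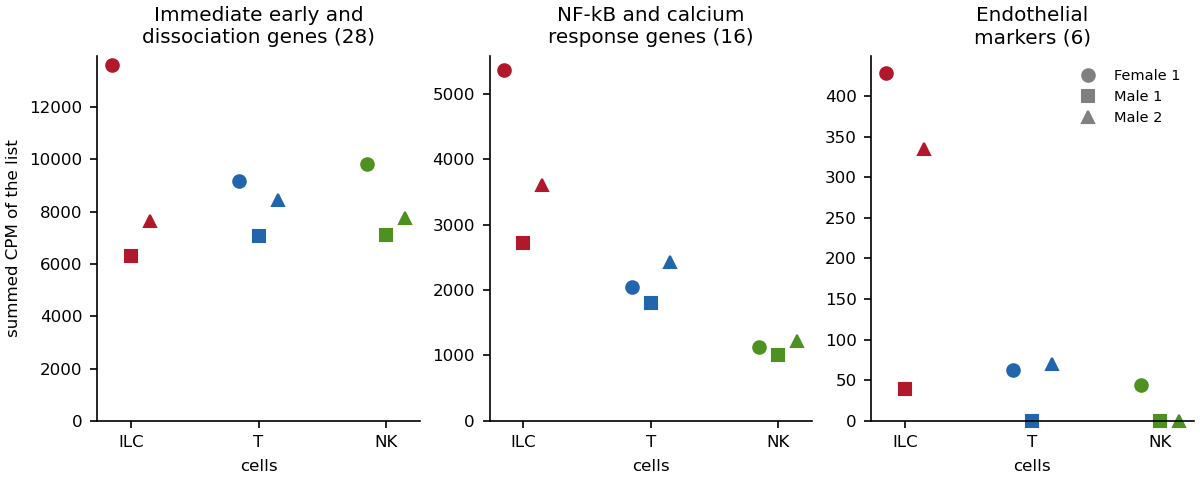
Summed CPM (vertical axes, from 0) of 3 gene lists in innate lymphoid cells (ILC), T cells and NK cells, 1 point per library. The NF-kB list lay higher in innate lymphoid cells than in the other cells of the same library throughout, the immediate early list did so in the Female library alone, and endothelial markers were high in the Female library and male library 2.

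The nuclear receptor genes of the NR4A family are immediate early genes as well, and *Nr4a1* was the only marker of the cell label that the gate had not used (*Rora*, *Gata3* and *Il1rl1* were gate genes). *Nr4a1* had 1258, 5 and 8 UMIs in 232, 5 and 7 innate lymphoid cells, 1492, 194 and 268 CPM, against 179, 185 and 34.8 in T cells and 128, 101 and 102 in NK cells. After thinning each cell to 500 UMIs, 54.3, 5.26 and 12.0% of innate lymphoid cells held an *Nr4a1* UMI, at equal total UMIs, of which free RNA was estimated at 67.8, 77.9 and 74.1%. These estimates are for the summed UMIs, in the Female library with its largest cell, and not for the thinned cells. The gate genes stood at 36.3, 52.6 and 24.0% for *Rora*, 32.8, 10.5 and 28.0% for *Gata3* and 14.1, 0 and 8.0% for *Il1rl1*. The selection shapes these shares, so the gate genes are no control for *Nr4a1*. *Nr4a3* stood at 543, 194 and 368 CPM against 51.2, 139 and 104 in T cells and 31.1, 101 and 102 in NK cells, above both in each library. All 17 female cells with *Il5* also held *Nr4a1*, but so did 232 of all 256 female innate lymphoid cells (90.6%). This count therefore shows no link between *Il5* and *Nr4a1*. Sex, core, day and digestion cannot be told apart in the gap of *Nr4a1* between the libraries.

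Genes of arginine, amino acid and lipid metabolism showed fewer calls, with 2 of 15 higher than in T cells (*Arg1* and *Odc1*) and 4 of 15 higher than in NK cells. *Slc7a8*, an amino acid transporter, was at 0 in NK cells and at least 7.48-fold higher in innate lymphoid cells (adjusted p = 0.00563), and *Dgat1*, of triglyceride synthesis, stood at 58.1, 155 and 0 CPM against 7.32, 0 and 102 (log2 fold change 3.36 ± 0.81, adjusted p = 0.00221). Of 8 cell cycle genes, 0 were called against T cells (edgeR, 2 at an unadjusted p under 0.05, 0 by DESeq2) and 4 were lower than in NK cells. *Top2a* was at 0 in innate lymphoid cells, at least 25.0-fold lower than in NK cells, and *Mki67* had 1 UMI in the 300 cells.

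Genes of T cells and group 3 innate lymphoid cells checked the exclusion of T cells with genes the gate had not used. *Trac*, the constant region of the T cell receptor α chain, had 1 UMI in the 300 cells and 71, 4 and 11 in the T cells, which were higher by a pooled ratio of 192 (95% exact interval 33.6 to 7684). *Trdc* and *Cd8b1* were at 0, at least 75.3- and 41.7-fold lower than in T cells. *Trbc2*, however, stood at 179, 0 and 100.4 CPM against 452, 278 and 348 in T cells and 129.9, 151 and 102 in NK cells. It was lower than in T cells (log2 fold change −1.28 ± 0.43, adjusted p = 0.0426, but adjusted p = 0.257 without the filter, and a log2 fold change of −1.18 with adjusted p = 0.183 without male library 2) and was not called against NK cells. Without the largest female cell the log2 fold change of *Trbc2* against T cells was −1.15 with adjusted p = 0.0687, and DESeq2 gave adjusted p = 0.124. Of 18 T cell genes 0 were higher and 7 lower than in T cells, which had been chosen on *Cd3* genes that go with them, and of 14, *Bcl11b* was higher and *Lck* lower than in NK cells. The IL-17 gene *Il17a* had 2 UMIs against 153, 5 and 1 in T cells, which were higher by a pooled ratio of 178 (95% exact interval 48.4 to 1481). Of 12 genes of group 3 cells *Il17a* alone was called against T cells, and 0 of 8 against NK cells, where 1 had an unadjusted p under 0.05 and DESeq2 called 0.

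Antigen-presentation genes were higher in the sums but came from few cells. *Cd74*, the invariant chain of MHC class II, had 109, 17 and 9 UMIs in 28, 1 and 1 cells, 129, 661 and 301 CPM against 25.6, 0 and 0 in T cells (log2 fold change 3.52 ± 0.54, adjusted p = 4.36e-08). *H2-Aa* (log2 fold change 3.27 ± 0.70, adjusted p = 0.000537) and *H2-Eb1* (log2 fold change 3.39 ± 0.68, adjusted p = 0.000148) went with it, the first not past the threshold without male library 2 (adjusted p = 0.0537). Without the 8 cells that held 3 or more macrophage and dendritic cell UMIs, an alternative chosen after the data had been seen, 0 of 14 genes of that list were higher than in T cells (edgeR, 0 at an unadjusted p under 0.05) and 0 of 13 than in NK cells. With those cells kept, 3 of 15 and 4 of 14 were higher. Of the 6 endothelial genes 4 were higher than in T cells and 5 than in NK cells, and 0 of 5 and 0 of 4 without the 23 cells with endothelial UMIs (0 at an unadjusted p under 0.05). *Plvap* and *Flt1* were called higher than in T cells (a pooled ratio of 14.0, 95% exact interval 4.65 to 69.2, and a log2 fold change of 3.37 ± 0.72), and their log2 fold changes turned to −1.65 and −2.58 without those cells. Both sets of cells were picked on the genes then counted, and left out of the innate lymphoid cells alone. The lost calls and turned signs of these 2 lists are therefore largely fixed by the removal and show only that few cells held the UMIs. The calls of the NF-kB and calcium response list stayed at 9 and 10 genes without either set of cells.

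Subtraction of the estimated free RNA, 67.8, 77.9 and 74.1% of the UMIs of innate lymphoid cells against 51.3, 72.6 and 60.0% in T cells and 43.3, 62.4 and 56.5% in NK cells, left 0 genes called higher and 0 lower against T cells (edgeR; 29 genes at an unadjusted p under 0.05) and 0 higher and 1 lower against NK cells. The female estimate of 67.8% was made from tear products with the largest female cell in the sum, and none was made without it. Tear products were 49.3% of the female UMIs with that cell and 39.2% without it. After the subtraction the log2 fold changes against T cells were 1.94 for *Lmo4*, 2.27 for *Nfkb1* and 1.95 for *Furin*, with adjusted p = 0.171, 0.151 and 0.219, and that of *Lcn11* against NK cells reversed (−0.66). In the fit without a filter, 42 genes were higher and 23 lower than in T cells after this subtraction.

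Lastly, genes of the signals that innate lymphoid cells receive were read in the other cells of the gland. *Il33*, the ligand of the receptor encoded by *Il1rl1*, stood at 257, 49.3 and 55.3 CPM in cells with fibroblast genes (1471, 63 and 58 UMIs), 7.75, 0.188 and 0.732 in epithelial cells and 0 in innate lymphoid cells. Fibroblast values exceeded epithelial values in each library, and the Female library was the highest. *Tslp*, another alarmin, was found in fibroblasts too (11.7, 11 and 6.67 CPM), above epithelial cells (1.88, 1.51 and 1.03 CPM), and reached 3.4, 0 and 8.0 CPM in endothelial cells, so that the order differed in male library 2. *Kitl*, the ligand of KIT, was highest in endothelial cells (450.3, 169 and 88.0 CPM), and *Icosl*, the ligand of ICOS, stood at 34.4, 19.0 and 7.75 CPM in myeloid cells and 7.12, 38.9 and 0 CPM in innate lymphoid cells, where single UMIs set the level in male library 1. *Calca* was the only one of the 3 ligand genes with a UMI in lymphocytes that passed the test against T cells or NK cells. *Il7*, the ligand of the receptor chain used in the gate, had 27, 3 and 4 UMIs in epithelial cells. Of the 11 ligand genes *Il25*, *Nmu* and *Vip* were at 0 UMIs in the 4 classes and in innate lymphoid cells, and *Calca* had 10, 1 and 0 UMIs in epithelial cells, so that among these classes its level was highest in innate lymphoid cells.

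**Figure D5:**
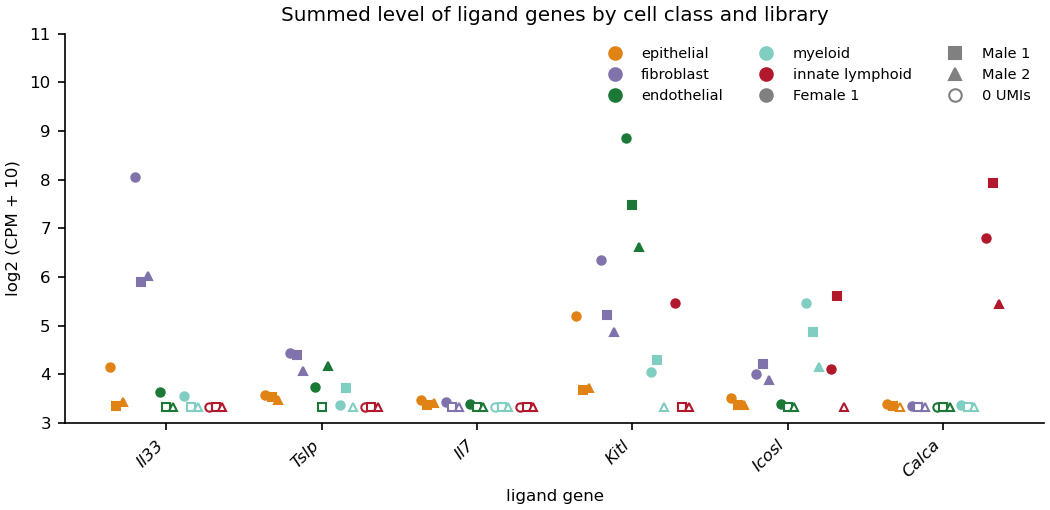
Levels of 6 ligand genes, as log2 of CPM + 10 (vertical axis), in epithelial, fibroblast, endothelial, myeloid and innate lymphoid cells, 1 point per library and open points for 0 UMIs. *Il33* was highest in fibroblasts, *Kitl* in endothelial cells and *Calca* in innate lymphoid cells.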

How the data were processed

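Droplet libraries (10x Genomics) of dissociated LGs were analysed. The authors aligned reads and counted UMIs with Cell Ranger 6.1.2 on the mouse build mm10, and the deposited tables hold raw UMI counts per gene and barcode, called cells and all barcodes, before the authors' own correction for ambient RNA and doublet removal. These counts were used as deposited.

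Barcodes were kept above 500 UMIs and 200 genes where mitochondrial UMIs were under 15% (8298, 5582 and 5712 of 9737, 6422 and 6899 called barcodes), a filter the study states as well, without its doublet removal. Doublets were scored (scanpy 1.11.5, 0.8% expected per 1000 cells) and left in except in an alternative. Of 190261 uncalled barcodes above 500 UMIs, 6216 passed the filter and 0 fell in the gate. T cells needed at least 2 UMIs of *Cd3d*, *Cd3e* and *Cd3g*, 1 leukocyte UMI and 0 of *Klra8* and *Klre1*, and NK cells at least 1 UMI of *Klra8* and *Klre1*, 2 of these with *Ncr1* and *Klrb1c*, and 0 of *Cd3d*, *Cd3e*, *Cd3g* and *Tcrg-C1*. Both gates shared the other exclusions of the innate lymphoid gate.

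UMIs were summed per library and cell group and tested with edgeR 4.0.16 (R 4.3.3, limma 3.58.1; quasi-likelihood, TMM, filterByExpr, Benjamini-Hochberg) with the library as a block, since both arms of a pair come from the same pool. Those of the 24 gate genes with enough counts were fitted with the other genes but stayed out of the calls and counts. Adjusted p-values cover all genes fitted, gate genes included, and measure the spread between 3 libraries. With the filter, 245 genes were fitted against T cells and 257 against NK cells. Calls have an adjusted p under 0.05. The scripts were tested on simulated data. Named genes are the 10 with the largest and the 10 with the smallest log2 fold change among those called and on the same side in 3 of 3 libraries, without 118 tear-product genes and without mitochondrial, ribosomal and sex-marker genes, and genes of the lists with at least 10 UMIs. The members and lists were chosen with earlier results of these data known. Alternatives were DESeq2 1.42.0, other scalings, filters and gates, subtraction of free RNA, no block, and each library left out. These 3 alternatives were chosen after seeing the data: leaving out cells with endothelial UMIs, those with macrophage and dendritic cell UMIs, and those above 20000 UMIs. Thinned shares used seed 7. Promoters were read from RefSeq. Some genes of the lists are not reported here by name.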

Additional observations from a re-analysis of the deposited data

Results flagged for a closer look

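These differences between the libraries were not tested, since 1 Female library stands against 2 Male libraries and sex coincides with the core and day of preparation. *Vps37b*, a gene of endosomal sorting, was higher in innate lymphoid cells than in T cells by 379 CPM in the Female library, while the differences in the Male libraries were −107 and −74.8 CPM. Against NK cells the difference of *Vps37b* was 476.4 CPM in the Female library and −22.9 and −273.6 CPM in the Male libraries. *Lcn11*, a tear-product gene of acinar cells, differed from NK cells by 525 CPM in the Female library and by −165 and −63.5 CPM in the Male libraries. In each case the 3 differences come from 1 library each, with 11 and 8 NK cells in the Male libraries.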

How the results depend on the processing

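The counts of called genes moved with the processing, and the cause was not tested. Against T cells, where 38 genes were higher and 19 lower, DESeq2 gave 17 and 7, total UMIs 9 and 66, no tear-product or mitochondrial genes 24 and 12, free RNA subtracted 0 and 0, no filter on low counts 131 and 44, a mitochondrial share under 5% 19 and 9, and no cells above 20000 UMIs 22 higher. Leaving out a library gave 0 to 146 higher and 3 to 68 lower. Against NK cells, with 52 and 28, total UMIs gave 27 and 136, no tear-product or mitochondrial genes 19 and 18, free RNA subtracted 0 and 1, no filter 220 and 83, and DESeq2 17 lower. Leaving out a library gave 26 to 258 higher and 18 to 125 lower. Without the replicate block, which pairs the arms of a library, 5 genes were higher and 2 lower than in T cells and 9 and 14 than in NK cells, and 17 of 38 calls on named genes that could be refitted were kept.

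Reversed log2 fold changes were, without the cells with endothelial UMIs, *Flt1* (−2.58), *Ier3* (−1.35) and *Plvap* (−1.65) against T cells and *Flt1* (−0.94) and *Plvap* (−0.45) against NK cells, and, with free RNA subtracted, *Lcn11* (−0.66) against NK cells. The cells with endothelial UMIs were picked on *Flt1* and *Plvap* among others and left out of the innate lymphoid cells alone, which largely fixes the turn of these genes. In the fit without a filter, 78 of 92 called results for list genes were kept without these cells, 9 lost the call and 5 reversed. Leaving out a library gave −4.32 to 0.19 for *Il18r1* and −0.66 to 1.74 for *Vps37b* against T cells, and −4.31 to 0.47 for *Il18r1* against NK cells. The share of innate lymphoid cells was 2.66, 0.197 and 0.210% with at least 3 gate UMIs and 1.94, 0.188 and 0.242% with the gate applied after thinning to 1000 UMIs. At that depth the mean share of cells with a UMI over 3 libraries was 56.3% for *Rora*, 47.4% for *Gata3* and 16.1% for *Il1rl1*. With the filter, of 59 called results for named genes DESeq2 kept 44, total UMIs 48 and no cells above 20000 UMIs 54. Free RNA subtracted kept 1 of 43.

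Depth limits the Male libraries, where 19 and 25 innate lymphoid cells held 25736 and 29895 UMIs, so that 0 UMIs of a gene there shows neither its absence nor a lower level.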
